A study of Homo sapiens with 101 samples.

Results

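The 9 genes described here are interferon-stimulated genes, which cells switch on when they detect viral nucleic acid or receive an interferon signal. They are OAS1, OAS3, IFIH1, IFIT1, IFIT2, IFIT3, IFI44, ISG15 and MX1. They were chosen by name, with earlier results of these data known. Every probe set that the array's annotation assigns to 1 of them alone was followed. That gave 16 probe sets for 9 genes, of 40914 probe sets for 19774 genes in all. Of the 16, 12 reached a mean log2 signal of 4 in at least 1 group and were tested with 21612 probe sets of all genes. The other 4 (1 for OAS3, 2 for IFIH1 and 1 for IFI44) stayed under 4 in all 17 groups. Each of the 9 genes kept at least 1 tested probe set, and the leading probe set of a gene is the one with the highest mean over all arrays.

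HT1080, an established human fibrosarcoma line, was given 1 of 11 compounds at a single dose, chosen per the series' design text to raise total p53 by 1.5 fold. Total RNA was measured on 101 Affymetrix HT HG-U133+ PM arrays, 100 replicates after a repeated array was averaged, in 17 groups of 6 (5 for MMC and H2O2). Compounds sharing the control group DMSO_pooled, a tie inferred from the sample titles, were tert-butylhydroquinone at 200 µM (tBHQ), ethylnitrosourea at 2 mM (ENU), GAD at 2 mM, hydrogen peroxide at 100 µM (H2O2), mitomycin C at 0.1 µM (MMC) and neocarzinostatin at 10 ng/ml (NCS). A separate DMSO group went with each of quercetin at 30 µM (QUE), etoposide at 0.3 µM (ETP), BRO at 600 µM and curcumin at 10 µM (CUR), and a group labelled CTL with methyl methanesulfonate at 200 µM (MMS). GAD and BRO are kept as the labels write them, and the time of exposure is not given in the sources used here. The cell line carried its mesenchymal markers, with group means from 10.3 to 13.2 for 6 of 6 genes, while 4 of 4 epithelial markers lay between 1.85 and 3.07 and the 4 measured leukocyte markers between 1.75 and 3.18. The p53 target CDKN1A was called higher in 9 compounds of 11, and rose by 0.33 in tBHQ and 0.51 in CUR on the log2 scale, short of 1.5-fold. ETP replicate 2 and QUE replicate 2 stood apart from their groups, with correlations to the rest of the group of 0.951 and 0.963, and results that change with them are given with and without them. The labels do not say whether replicates came from separate cultures, so each p-value reflects only how far these samples spread, which may be technical.

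Type I interferons bind a receptor whose kinases JAK1 and TYK2 activate a transcription factor complex that contains IRF9 and binds a response element in the promoters of interferon-stimulated genes. Sensors in the cytosol, of which IFIH1 (also called MDA5) is one, start the response when they meet viral RNA, and many cells keep a low tonic level of the target genes without infection. OAS1 and OAS3 make short oligoadenylates that activate the nuclease RNase L, the IFIT proteins bind foreign RNA ends and block translation, ISG15 is a ubiquitin-like modifier, MX1 is a GTPase that traps viral nucleocapsids, and IFI44 is a cytoplasmic protein less well understood.

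Promoters were taken from a RefSeq table (GRCh38.p14, windows of equal length around each listed start), which held 8 of the 9 genes, all but IFIT2. The core of the interferon-stimulated response element was searched as GAAANNGAAA, on both strands, where N is any base. A gene was counted if any of its listed promoters held it, which gave 7 of 8 members and 28 of 39 other interferon-stimulated genes. Of 35116 promoters in the table, counted singly and not by gene, 3.57% held it. OAS1 held no such match and instead held GAAANGAAA, with a spacer of 1 base, which 5 of 8 members and 3.12% of all promoters carried. The windows of 6 genes with called changes are printed 5′ to 3′ on the gene's strand because these matches are what the members share in sequence. Capitals mark every match of either spacer, TTTC runs are matches on the opposite strand, and neighbouring matches can overlap.
OAS1 (chr12:112906920-112906978, plus strand): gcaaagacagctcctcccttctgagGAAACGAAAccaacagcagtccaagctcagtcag
IFIH1 (chr2:162318671-162318868, minus strand): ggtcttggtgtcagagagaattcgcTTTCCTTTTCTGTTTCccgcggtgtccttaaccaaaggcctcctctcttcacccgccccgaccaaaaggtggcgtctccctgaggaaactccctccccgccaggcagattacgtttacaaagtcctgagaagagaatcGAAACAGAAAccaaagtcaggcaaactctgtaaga
IFIT1 (chr10:89392482-89392554, plus strand): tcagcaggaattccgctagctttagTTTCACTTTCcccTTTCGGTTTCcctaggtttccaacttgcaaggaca
IFIT3 (chr10:89327816-89327909, plus strand): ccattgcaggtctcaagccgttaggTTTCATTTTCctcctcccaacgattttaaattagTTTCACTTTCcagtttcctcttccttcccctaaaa
IFI44 (chr1:78649746-78649810, plus strand): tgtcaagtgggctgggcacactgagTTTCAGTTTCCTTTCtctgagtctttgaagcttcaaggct
ISG15 (chr1:1013359-1013424, plus strand): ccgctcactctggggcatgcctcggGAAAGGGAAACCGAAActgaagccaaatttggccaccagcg
The OAS1 match began 17 bases before the listed start, those of ISG15 113 and 107 bases before it, and those of IFIT1 116 and 103 bases before it. IFIT3 has more than 1 listed start and its window belongs to the start farthest upstream. IFI44 has a pair of listed starts whose promoters overlap, and its GAAANNGAAA match lay 18 bases before one and 60 before the other. A match is a description of letters and not a site shown to be bound.

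The genes did not respond as a block. A gene was called changed at a limma adjusted p under 0.05 over 21612 probe sets and a change of at least 1.5-fold. By their leading probe sets, 17 gene and compound pairs were called lower and 2 were called higher. GAD lowered 6 of the 9 genes, tBHQ 5, ENU and QUE 2 each, and MMS and CUR 1 each, while IFI44 was called higher in MMS and in H2O2. Of 11496 genes by leading probe set, 15.0% were called lower in GAD, 4.43% in tBHQ, 6.08% in ENU and 6.56% in QUE. The share was 6.46% in MMS and 0.826% in CUR, and 4.39% in MMS and 0.678% in H2O2 were called higher. The GAD and tBHQ counts include IFIT2, whose treated and control means were all under 4. The map of changes shows OAS1 called lower in 5 compounds, IFIH1 and IFIT1 in 3 each, IFIT2 and IFIT3 in 2 each, ISG15 and IFI44 in 1 each, and OAS3 and MX1 in none. A smaller share of cells expressing a gene and less of its RNA per cell cannot be told apart in such bulk samples. Every value is relative to the other RNA on the array.

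**Figure D1:**
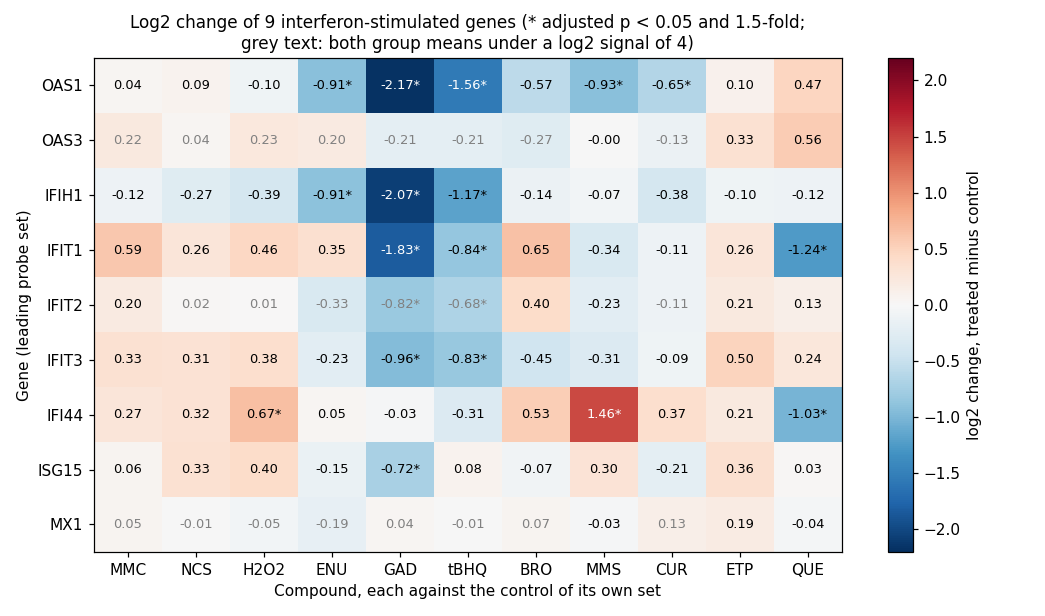
Log2 change of the leading probe set of 9 genes (vertical) in 11 compounds (horizontal), treated minus control of the same set, with the value printed in each cell and coloured from blue (lower) to red (higher). Stars mark an adjusted p under 0.05 with at least 1.5-fold change, and grey text marks cells where both group means were under 4. OAS1 in GAD is the darkest blue cell at -2.17 and IFI44 in MMS the darkest red at 1.46.

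Among all 12 tested member probe sets, GAD lowered 7, against 14.1% of all tested probe sets. tBHQ lowered 6 (background 4.39%), ENU 3 (background 5.59%), QUE 2 (background 5.93%) and CUR 2 (background 0.648%). MMS lowered 2 and raised 1, beside 5.85% of all probe sets called lower and 4.34% called higher. H2O2 raised 1, beside 0.523% of all. By limma no member probe set was called in MMC, NCS, BRO or ETP, where 4, 4, 3 and 3 of the 12 had an unadjusted p under 0.05, and where 0.0972%, 2.04%, 6.82% and 2.19% of all probe sets were called in either direction. The median log2 change over the 9 leading probe sets was -0.82 in GAD and -0.68 in tBHQ, against 0.05 and 0.01 over all tested probe sets. It was -0.19 in ENU, 0.20 in MMC, 0.23 in H2O2 and 0.21 in ETP, where the medians of all tested probe sets lay from -0.01 to 0.01. The 6 compounds set against DMSO_pooled share that control, so their values are given side by side and not as independent repeats. DMSO_pooled had n = 6.

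IFIH1, the cytosolic RNA sensor, was lower after GAD, tBHQ and ENU. Its log2 signal ran from 5.99 to 7.03 in DMSO_pooled, with a median of 6.63. In GAD it ran from 4.19 to 4.69, with a median of 4.51. In tBHQ it ran from 5.06 to 5.67, with a median of 5.38. GAD and tBHQ replicates therefore all lay below every control, whereas in ENU 5 of 6 did, in a range from 5.22 to 6.20 with a median of 5.58. The change was -2.07 ± 0.19 (SE, n = 6 against 6, adjusted p = 9e-07), a 4.21-fold fall, in GAD, -1.17 ± 0.20 (adjusted p = 0.00065) in tBHQ and -0.91 ± 0.22 (adjusted p = 0.0074) in ENU. Averaged with its probe sets under 4, IFIH1 changed by -0.51 in tBHQ and -0.32 in ENU, which is under 1.5-fold. In the other 8 compounds the changes of IFIH1 lay between -0.39 (H2O2) and -0.07 (MMS), and none was called. The fall in GAD exceeded that in tBHQ by 0.91 ± 0.22 (adjusted p = 0.0013), and the fall in tBHQ did not pass against ENU (0.26 ± 0.22, adjusted p = 0.47).

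OAS1, which makes the messenger that activates RNase L, fell in the largest number of compounds. Its log2 signal in DMSO_pooled ran from 6.36 to 7.07, with a median of 6.58. After GAD it ran from 3.76 to 5.13 (median 4.46), after tBHQ from 4.86 to 5.39 (median 5.07) and after ENU from 5.36 to 6.12 (median 5.69). All 18 of these treated replicates lay below the lowest control, and the 3 groups lay in the order ENU, tBHQ, GAD. The change was -0.91 ± 0.15 (SE, adjusted p = 0.00062) in ENU, -1.56 ± 0.12 (adjusted p = 2.1e-06) in tBHQ and -2.17 ± 0.20 (adjusted p = 1.1e-06) in GAD, which is 4.49-fold. Each neighbour in that order differed from the next, tBHQ from ENU by 0.64 ± 0.17 (adjusted p = 0.0032) and GAD from tBHQ by 0.61 ± 0.17 (adjusted p = 0.0054).

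OAS1 also fell in the MMS set, where the control ran from 6.08 to 6.64 (median 6.34) and MMS from 4.80 to 5.88 (median 5.46). The groups did not overlap, and the change was -0.93 ± 0.16 (SE, n = 6 against 6, adjusted p = 0.00098). In the CUR set the control ran from 6.64 to 7.23 (median 6.92) and CUR from 5.81 to 6.71 (median 6.398), with 5 of 6 treated replicates below every control. The change of OAS1 in CUR was -0.65 ± 0.15 (adjusted p = 0.037), and the call was lost in 9 of 12 fits that left out 1 replicate. The other OAS1 probe set fell by 0.69 in CUR (adjusted p = 0.013).

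Quercetin and BRO were different again for OAS1. In QUE it ran from 7.73 to 8.45 (median 8.02) against 7.34 to 7.69 (median 7.63) in QUE_DMSO, so that 6 of 6 treated replicates lay above every control. The change was 0.47 ± 0.14 (SE, adjusted p = 0.024), under the 1.5-fold minimum, and it was 0.53 without QUE replicate 2. In BRO OAS1 ran from 5.05 to 6.403 (median 5.66) against 6.05 to 6.53 (median 6.29), with 4 of 6 below every control, and the change of -0.57 ± 0.20 had an adjusted p of 0.051. It was called lower at -0.70 without BRO replicate 4 and at -0.68 without BRO replicate 6. OAS1 in MMC, NCS, H2O2 and ETP changed by -0.10 to 0.10, with adjusted p-values of 0.57 or more. QUE, with replicate 2 kept, differed from GAD by 2.63 ± 0.24 (adjusted p = 2.4e-15) and from MMS by 1.39 ± 0.24 (adjusted p = 4.2e-06). These compounds belong to different sets, so set and compound cannot be told apart in such differences. Across all 55 pairs of compounds, 35 differed in OAS1 by an adjusted p under 0.05 and at least 1.5-fold, more than for any other member, beside 10.9% of all probe set and pair combinations.

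The other OAS1 probe set followed the leading one, with r = 0.92 over 100 replicates after the control mean of each set was subtracted. It was called lower in the same 5 compounds. Its means were 3.54 in ENU, 2.80 in GAD, 3.26 in tBHQ and 3.82 in MMS, all under 4, so those falls are at least 0.27 in the first 3 and at least 0.56 in MMS on the log2 scale against a floor of 4.

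**Figure D2:**
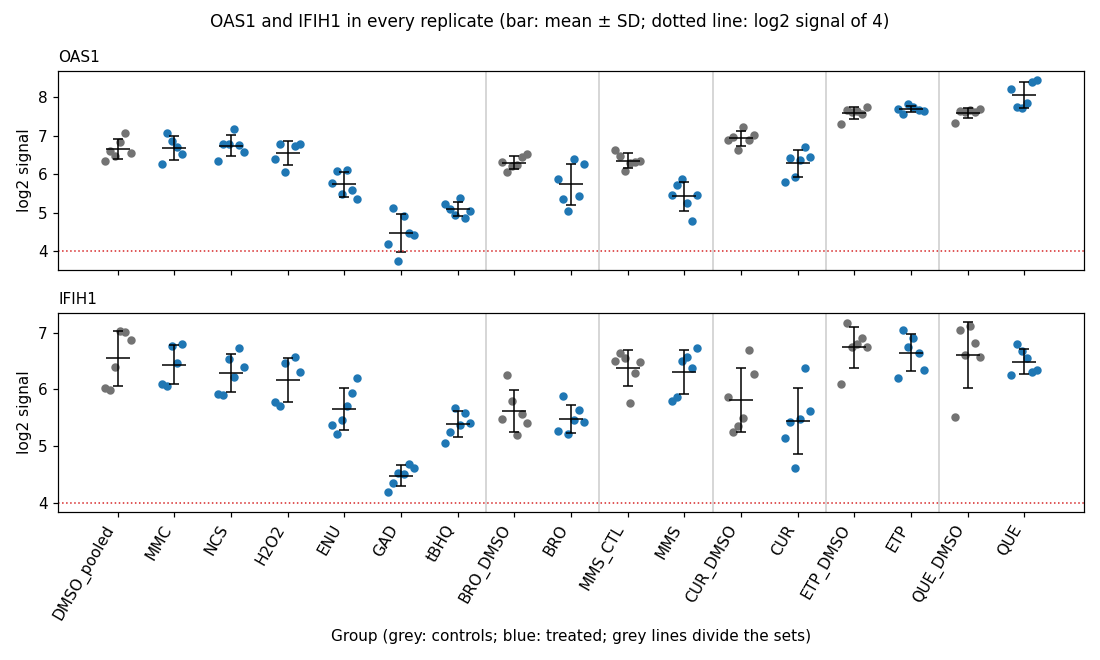
Log2 signal (vertical) of OAS1 (upper panel) and IFIH1 (lower panel) in every replicate of 17 groups (horizontal). Grey points are controls, blue points treated replicates and bars the mean and SD. Grey lines divide the sets, each a control group with its compounds, and the dotted line is a log2 signal of 4. OAS1 in GAD spans 3.76 to 5.13 against 6.36 to 7.07 in DMSO_pooled, while in QUE it spans 7.73 to 8.45, above its own control.

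OAS3, another oligoadenylate synthetase, lay near background in most groups. Its mean was under 4 in 11 of 17 groups and 59 of 100 replicates were under 4. In DMSO_pooled it ran from 3.47 to 4.01 (median 3.69), and in the 6 compounds of that set the group means lay from 3.51 to 3.95, so no fold is given there. It was above 4 in the MMS, ETP and QUE sets. In QUE it ran from 4.79 to 6.94 (median 5.64) against 4.86 to 5.32 (median 5.08), and the groups overlapped. The change was 0.56 ± 0.28 (SE, adjusted p = 0.14), and without QUE replicate 2 OAS3 was called higher at 0.73 (adjusted p = 0.032).

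IFIT1, which binds viral RNA caps, was measurable in most controls and fell under 4 after GAD. In DMSO_pooled it ran from 4.48 to 5.32 (median 4.78). In GAD it ran from 2.63 to 3.38 (median 2.99) and in tBHQ from 3.61 to 4.398 (median 3.95). Neither group overlapped with the control, and the GAD and tBHQ means of 2.99 and 3.98 were both under 4. Against a floor of 4 each is at least 1.76-fold lower than the control, and the fitted adjusted p-values were 4.5e-07 in GAD and 0.0011 in tBHQ. The tBHQ call was lost in 1 fit of all 17 groups (adjusted p = 0.063).

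In QUE the lowest, median and highest IFIT1 signals were 3.43, 4.22 and 6.02, against 4.80, 5.66 and 5.97 in QUE_DMSO. Of the 6 treated replicates 5 lay below every control, and QUE replicate 2 at 6.02 lay above every control. The change was -1.24 ± 0.35 (SE, adjusted p = 0.02) with that replicate and -1.58 (adjusted p = 9e-05) without it. In MMC the 5 replicates read 5.68, 5.72, 5.73, 4.98 and 4.91, of which 3 lay above every control, and the change of 0.59 ± 0.19 had an adjusted p of 0.46. The signals of IFIT1 in BRO spread widely, with an SD of 1.18 against 0.49 in BRO_DMSO, and the change of 0.65 ± 0.44 was not called (adjusted p = 0.30).

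IFIT2, the neighbour of IFIT1 in the same gene family, lay under 4 on average in 10 of 17 groups. Its signal ran from 3.69 to 4.02 (median 3.91) in DMSO_pooled, from 2.77 to 3.37 (median 2.95) in GAD and from 3.01 to 3.33 (median 3.22) in tBHQ. Neither treated group overlapped with the control and both had a call (adjusted p = 2.9e-05 and 7.1e-05), but treated and control means were all under 4, so no fold is given, and both calls were lost when values under 4 were set to 4. In ETP and QUE, where treated replicates lay between 4.35 and 4.95, IFIT2 changed by 0.21 and 0.13 and was not called. The other IFIT2 probe set was called in no compound.

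IFIT3, a partner that stabilizes IFIT1, was well above background in all groups. It ran from 7.01 to 7.36 (median 7.09) in DMSO_pooled, from 5.83 to 6.66 (median 6.11) in GAD and from 5.97 to 7.13 (median 6.08) in tBHQ. All GAD replicates and 5 of 6 tBHQ replicates lay below every control. The falls were -0.96 ± 0.15 (SE, adjusted p = 7.6e-05) and -0.83 ± 0.18 (adjusted p = 0.0041), and they did not pass against each other (difference 0.13 ± 0.20, adjusted p = 0.73). The other IFIT3 probe set had treated means of 3.75 in GAD and 3.70 in tBHQ, against 4.25 in the control, and was not called in either.

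In ETP IFIT3 ran from 7.73 to 8.08 (median 7.82) against 6.87 to 7.63 (median 7.40) in ETP_DMSO, with 6 of 6 treated replicates above every control. That change of 0.50 ± 0.12 (SE, adjusted p = 0.038) fell short of 1.5-fold. In H2O2 the 5 replicates of IFIT3 read 7.76, 7.74, 7.58, 7.42 and 7.11, of which 4 lay above every control. The change of 0.38 ± 0.12 had an adjusted p of 0.17, and of 0.04 with replicate number as a block in limma. ENU, which lowered OAS1 and IFIH1, changed IFIT1 by 0.35 ± 0.31 (adjusted p = 0.42) and IFIT3 by -0.23 ± 0.20 (adjusted p = 0.42), and it differed from GAD in IFIT1 by 2.18 ± 0.35 (adjusted p = 7.8e-07).

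ISG15, the ubiquitin-like modifier, fell in GAD alone of the 11 compounds by the call rule. It ran from 6.81 to 7.19 (median 6.998) in DMSO_pooled and from 6.04 to 6.63 (median 6.30) in GAD, with no overlap. The change was -0.72 ± 0.11 (SE, n = 6 against 6, adjusted p = 6e-05). After tBHQ, which lowered the IFIT genes, ISG15 ran from 6.87 to 7.35 (median 7.07), a change of 0.08 ± 0.09 (adjusted p = 0.58). The difference between GAD and tBHQ was 0.80 ± 0.14 (adjusted p = 4.4e-06).

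In the fit used for calls, the ISG15 change in MMS and ETP had an adjusted p under 0.05 but stayed under the 1.5-fold minimum. In H2O2 and NCS it missed both. That order depended on the fit. With replicate number as a block in limma, the adjusted p was 0.018 in H2O2 and 0.017 in NCS. It was 0.066 in MMS and 0.061 in ETP, and each change stayed under 1.5-fold. In MMS it ran from 7.02 to 7.23 (median 7.11) against 6.54 to 6.97 (median 6.89), a change of 0.30 ± 0.09 (adjusted p = 0.019) with 6 of 6 treated replicates above every control. In ETP it ran from 7.63 to 8.11 (median 7.96) against 7.51 to 7.64 (median 7.55), a change of 0.36 ± 0.09 (adjusted p = 0.042) with 5 of 6 above every control. In H2O2 the replicates read 7.60, 7.34, 7.45, 7.30 and 7.34, all above every control, and the change of 0.40 ± 0.09 had an adjusted p of 0.057. In NCS ISG15 ran from 7.15 to 7.80 (median 7.25), with 4 of 6 replicates above every control, and the change of 0.33 ± 0.11 had an adjusted p of 0.11.

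IFI44 went its own way, highest after MMS and lowest after QUE relative to control. In MMS_CTL it ran from 3.79 to 5.40 (median 4.99), and in MMS from 6.02 to 6.50 (median 6.37). All MMS replicates lay above every control, and the low end of the control was MMS_CTL replicate 3. The change was 1.46 ± 0.23 (SE, adjusted p = 0.00048), a 2.75-fold rise, and 1.24 (adjusted p = 2.6e-05) without that replicate. OAS1 in the same MMS replicates fell by 0.93. MMS differed in IFI44 from BRO by 0.92 ± 0.34 (adjusted p = 0.041) and from QUE by 2.48 ± 0.34 (adjusted p = 8.3e-09). It did not pass against H2O2 (0.79 ± 0.35, adjusted p = 0.10). BRO, QUE and H2O2 are in other sets than MMS, so set and compound cannot be told apart here.

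In QUE IFI44 ran from 3.78 to 5.19 (median 4.01) against 5.05 to 5.56 (median 5.14) in QUE_DMSO. Of the 6 treated replicates 5 lay below every control, and QUE replicate 2 at 5.19 lay within the range of the controls. The change was -1.03 ± 0.21 (adjusted p = 0.005), and -1.23 (adjusted p = 5.7e-06) without QUE replicate 2. In H2O2 the 5 replicates read 5.95, 5.44, 5.90, 5.67 and 5.20 against 4.69 to 5.17 (median 5.01) in DMSO_pooled, all above every control. The change of 0.67 ± 0.14 had an adjusted p of 0.046, and the call was lost in 10 of 11 fits that left out 1 replicate and in 6 of the other settings tried. GAD, which lowered 6 of the other members, left IFI44 at 4.28 to 5.40 (median 5.02), a change of -0.03 ± 0.17 (adjusted p = 0.88). Without BRO replicate 5 IFI44 was called higher in BRO at 0.70 (adjusted p = 0.013), against 0.53 (adjusted p = 0.074) with it.

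**Figure D3:**
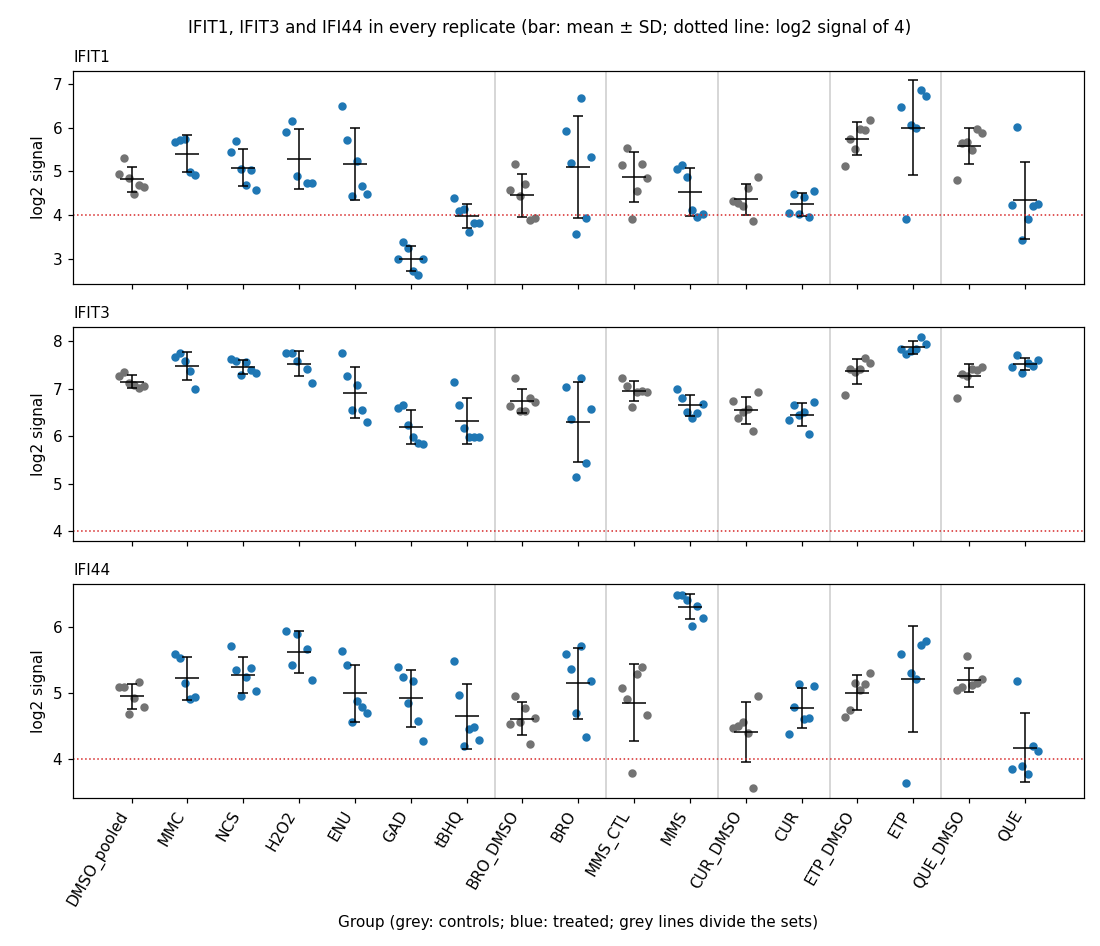
Log2 signal (vertical) of IFIT1, IFIT3 and IFI44 (panels from the top) in every replicate of 17 groups (horizontal). Grey points are controls, blue points treated replicates and bars the mean and SD. Grey lines divide the sets, each a control group with its compounds, and the dotted line is a log2 signal of 4. IFI44 in MMS spans 6.02 to 6.50 above its control, and single replicates of ETP and QUE lie far from the rest in IFIT1 and IFI44.

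MX1, the antiviral GTPase, was called in no compound. Its mean was under 4 in 11 of 17 groups, from 2.85 in CUR_DMSO to 3.65 in MMC among them, and no fold is given there. In the MMS, ETP and QUE sets, where it reached 4.22 to 4.91, it changed by -0.03, 0.19 and -0.04, with adjusted p-values of 0.66 or more. MX1 was also the only one of the 12 tested probe sets for which the 11 responses did not differ by the limma F test (adjusted p = 0.93). The other 11 passed it, as did 80.4% of all tested probe sets.

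Replicates of the same group also differed together in some members and not in others. With the mean of its own group subtracted from each of 100 replicates, IFIT1 and IFI44 correlated at r = 0.749, IFIT1 and IFIT3 at 0.745, and IFIT2 and IFIT3 at 0.684. IFIT1 and IFIH1 correlated at -0.171 and IFIH1 and IFI44 at -0.292. Over all 36 pairs of members r ran from -0.292 to 0.749, with a median of 0.269. These values are descriptions, since replicates share their array's processing and their set. In BRO, replicate 4 was the highest of its group in 7 of 9 genes, and replicates 3 and 5 were the lowest pair in 6 of 9, a pattern picked out after the values were seen. ETP replicate 2 read 3.91 in IFIT1 and 3.64 in IFI44, far under the others of its group, but 4.95 in IFIT2, the highest of its group. Without it IFIT1 changed by 0.68 (adjusted p = 0.066) and IFI44 by 0.52 (adjusted p = 0.047) in ETP, against 0.26 and 0.21 with it.

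**Figure D4:**
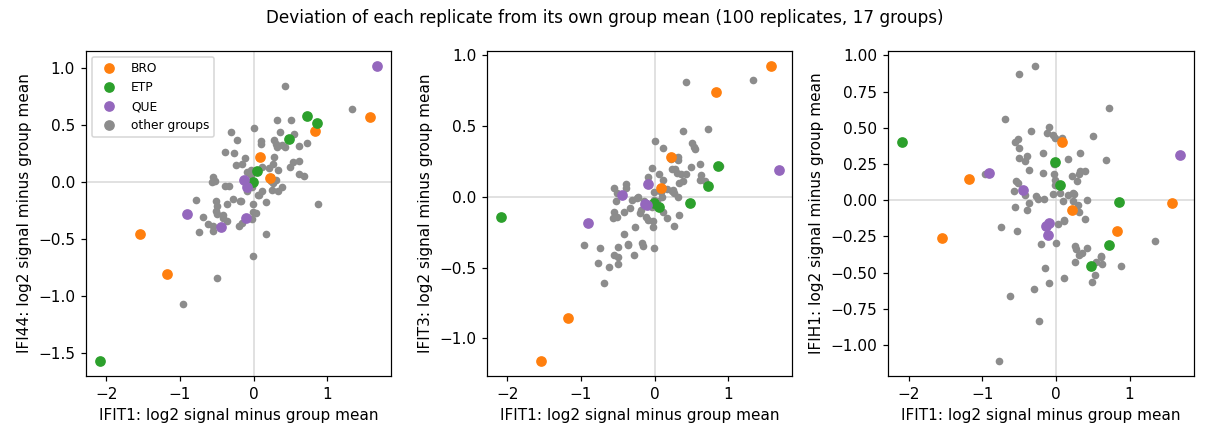
Deviation of each of 100 replicates from its own group mean, in log2 units, for IFIT1 (horizontal) against IFI44, IFIT3 and IFIH1 (vertical, panels from the left), with BRO, ETP and QUE replicates coloured and the other groups grey. The first 2 panels slope upward (r = 0.749 and 0.745) and the IFIH1 panel does not (r = -0.171).

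When the mean of the control was subtracted from each replicate, so that treatment effects stay in, OAS1 went most closely with IFIT3 (r = 0.733), IFIT2 and IFIH1 (r = 0.697 each), and not with IFI44 (r = -0.09). The genes most like the mean of the 9 members in that measure, over the same 100 replicates, were the phosphodiesterase PDE4B (r = 0.821), the interferon-inducible GTPase GBP3 (0.82), DLEU1 (0.801), SYTL2, CAV1, ENC1, TLE4, PDGFC, the cytokine IL7 (0.787) and the proteasome activator subunit PSME2 (0.78).

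Among upstream genes of the pathway, listed by role, IRF1 and AIM2 were called in the largest number of compounds, 6 each. Of 9 interferon genes 8 had a probe set, and 7 of these, IFNB1 and IFNG among them, had group means no higher than 2.98. IFNE was the only ligand tested, and its mean fell from 4.77 to 3.70 in ENU (adjusted p = 0.0003). Of 8 tested receptors and kinases, the receptor chain IFNAR1 was higher in ENU (1.24 ± 0.095, adjusted p = 2e-06) and lower in QUE (-0.98 ± 0.31, adjusted p = 0.03, and -1.22 without QUE replicate 2), IFNAR2 was lower in GAD (-0.72) and IFNGR1 higher in QUE (0.78, and 0.88 without QUE replicate 2). IRF1, a transcription factor that activates many genes of this class, was called lower in 6 compounds, by 1.37 in GAD, 1.08 in MMS, 0.93 in BRO, 0.83 in tBHQ, 0.80 in QUE and 0.63 in ENU. IRF9, the DNA-binding subunit of the complex named above, was called lower in QUE alone (-0.74 ± 0.25, adjusted p = 0.042, and -0.98 without QUE replicate 2), where IRF1 changed by -0.99 without that replicate.

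Of 11 tested sensors and adaptors, the DNA sensor AIM2 was called lower in ENU, GAD, BRO, MMS, CUR and QUE, by 0.77 (MMS) to 1.56 (GAD). The RNA sensor RIGI and the adaptor STING1 fell in GAD by 1.20 and 1.29, beside the fall of IFIH1. The kinase IKBKE was lower in QUE and in GAD, where its mean was 3.64 against 4.33. GAD thus lowered 4 of the 11 (36.4%, against 15.0% of 11496 genes), and the median change over the 11 was 0.09. In the same GAD replicates TBK1, MAVS and TICAM1 rose by 0.57, 0.44 and 0.335, under 1.5-fold, with 6 of 6 replicates above every control. Without QUE replicate 2 AIM2 changed by -1.41 in QUE. TLR3, an endosomal RNA sensor, was called higher in 3 compounds, each against a control mean under 4. Its mean was 4.46 in ENU against 3.65, 5.11 in ETP against 3.92 and 4.47 in QUE against 3.78. Without ETP replicate 2 STING1 was also called higher in ETP, at 0.70 (adjusted p = 0.025). Among 9 tested brakes on the pathway, USP18, which removes ISG15 from proteins, fell in GAD and tBHQ from 4.0 to 3.21 and 3.29, and the cytokine signalling inhibitor SOCS3 rose in tBHQ by 0.94 ± 0.18 (adjusted p = 0.002). RNASEH2C, a subunit of an enzyme that clears RNA from DNA, was called lower in GAD, BRO and QUE, by 0.92, 0.67 and 1.25, the last of which was 1.48 without QUE replicate 2. SAMHD1 was lower in tBHQ, TREX1 lower in QUE and RNASEH2A higher in MMS.

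Of 47 other interferon-stimulated genes, 39 were tested by their leading probe set. GAD lowered 12 of them (30.8%, against 15.0% of 11496 genes), with the guanylate-binding proteins GBP1 at -2.75 ± 0.25 (SE) and GBP2 at -2.18 ± 0.18 and the immunoproteasome subunit PSMB9 at -2.41 ± 0.12. The others in GAD were DDX60, SAMD9L, IFI35, CMPK2, IFITM1, PSMB8, HERC6, RTP4 and SAMD9. tBHQ lowered 6 (15.4%, against 4.43%), among them PSMB9 (-1.12), SAMD9 (-1.08) and SAMD9L (-1.03). BRO also lowered 6 (15.4%, against 4.92%), among them GBP2 (-1.14), IFITM1 and PSMB9 (-1.01 each), although no member was called there. RTP4 was called lower in ENU, GAD, tBHQ and BRO with treated and control means all under 4.

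ENU lowered 5 of the 39 (12.8%, against 6.08%) and raised 2 (background 4.76%). MMS lowered 4 (10.3%, against 6.46%), with GBP2 at -1.20 and GBP1 at -0.91. CUR lowered IFITM1 alone (background 0.826%). QUE lowered 5 (12.8%, against 6.56%), namely DDX60, IFI35, SAMD9L, NMI and IFITM2, and raised TAP1 (background 6.36%). Without QUE replicate 2 it lowered 11 and raised 2, and RIGI was called lower at -1.08 (adjusted p = 0.0061). Calls over all 21612 probe sets also went up without that replicate, from 1282 to 1904 lower and from 1518 to 2117 higher. The changes that were higher came from few genes. TRIM22 and TAP1, the latter a peptide transporter of antigen presentation, rose in NCS (0.80 and 0.68), ENU (0.77 and 0.80) and ETP (0.92 and 1.03). TRIM22 also rose in H2O2 (0.78), TAP1 in QUE (1.32) and IFI27 in NCS (0.61). The background for higher calls was 1.41% in NCS, 0.678% in H2O2 and 1.96% in ETP. In the ETP set with replicate number as a block TRIM22 lost its call. Without ETP replicate 2 TRIM22 rose by 1.14 and TAP1 by 0.83 in ETP, and without QUE replicate 2 TAP1 rose by 1.4 in QUE. Of 82 calls of pathway genes, 78 remained with no filter on low signals, 81 with the replicate number as a block, and 82 when arrays were set to an equal median or quantile normalized, with 0 changes of sign.

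**Figure D5:**
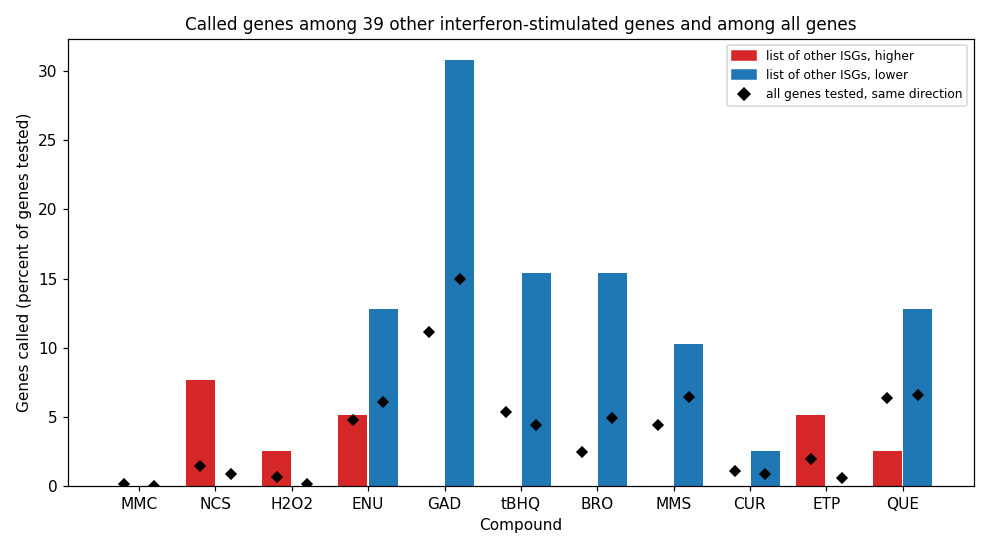
Share of 39 other tested interferon-stimulated genes called higher (red bars) and lower (blue bars), in percent (vertical), in each of 11 compounds (horizontal); black diamonds give the share of all 11496 genes called in the same direction. The tallest bar is 30.8% lower in GAD, against 15.0% of all genes.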

How the data were processed

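The authors deposited a log2 value per probe set and array; the submitters' processing notes name GCRMA and Partek, without versions. The quantiles of the arrays matched only inside each of 6 sets, and levels are therefore compared within sets. Signals reach down to background (the lower 5% of an array lay from 1.70 to 2.48), and the number of arrays limits the precision. Probe sets assigned to 1 gene with a mean of at least 4 in 1 or more of 17 groups were fitted per comparison with limma 3.58.1 (R 4.3.3), 2 groups a fit, with Benjamini-Hochberg adjustment over 21612. A call is an adjusted p under 0.05 and at least 1.5-fold. Pairs of compounds and the F test came from 1 fit of all 17 groups, pairs adjusted over 1188660 values. Where the compounds compared are in different sets, set and compound cannot be told apart. The ETP_DMSO arrays labelled r2 and r2-2 were averaged. Calls used the signals as deposited; where 1 mean was under 4, a change is given against 4 or as the means.

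All members were named; pathway genes were named where called, and look-alikes were the top 10 by r. Members and lists were chosen with earlier results of these data known. Same-numbered replicates deviated together (every r above 0.1) in all comparisons but MMS (r from -0.27 to 0.34) and ETP (0.044 to 0.60), as computed from the data. With the replicate number as a block 0 member calls changed. The fit was tested on simulated data with noise drawn independently for every probe set and array. Those data lack the shared deviations of same-numbered replicates, so they cannot test the fit against them. Alternatives were filters, scalings, probe set choice, fold minimum, variance model, block and each replicate left out. Promoters are from RefSeq (GRCh38.p14), and figures used matplotlib 3.10.9, pandas 2.3.3 and Python 3.11.15.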

Additional observations from a re-analysis of the deposited data

Results flagged for a closer look

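In 13 of 153 combinations of a member and a group, 1 replicate lay far from the other replicates of its group, where about 1 in 20 is usual by chance. QUE_DMSO replicate 1 was the low one in 4 genes, at 7.34 in OAS1, 3.999 in IFIT2, 6.81 in IFIT3 and 5.50 in IFIH1. QUE replicate 2 was high in IFIT1 (6.02) and IFI44 (5.19), and ETP replicate 2 was low in IFIT1 (3.91) and IFI44 (3.64). The others were QUE_DMSO replicate 3 in IFI44 (5.56), ETP_DMSO replicate 1 in IFIT3 (6.87), CUR_DMSO replicate 6 in IFIT2 (4.25), NCS replicate 1 in ISG15 (7.80) and MMS replicate 3 in MX1 (4.58).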

How the results depend on the processing

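Counts are of member probe sets by limma, 12 in number unless the setting changed it. There were 16 with no filter, and 9 with 1 probe set per gene or probe sets averaged per gene. H2O2 went from 1 call to 0 with no filter, probe sets averaged per gene, an equal median, quantile normalization, 1 fit of all groups or values under 4 set to 4. With the mean of probe sets ENU had 1 (IFIH1 lost), tBHQ 3 (IFIT2 and IFIH1 lost), QUE 1 (IFI44 lost) and CUR 1 (OAS1 kept). CUR also had 1 with a filter at 6 or 1 probe set per gene, where the leading OAS1 probe set kept its call. With no filter CUR had 1, and that leading probe set lost its call. With no fold minimum ETP had 2 and QUE 4, while calls over all probe sets went from 473 to 796 in ETP and from 2800 to 6459 in QUE. With a filter at 6 the members left were the leading probe sets of OAS1, IFIT1, IFIT3, IFIH1, IFI44 and ISG15. All 6 passed the F test. With a spacer of 3 bases 3 members had a promoter that matched. Leaving out 1 replicate gave 0 to 1 in H2O2, BRO and ETP, 1 to 2 in CUR, 2 to 3 in QUE, 6 to 7 in tBHQ, 7 to 8 in GAD, 3 in ENU and in MMS, and 0 in MMC and NCS. The cause of these changes was not tested. No called member changed sign under any of these settings. With the replicate block no member call changed, while calls over all probe sets went from 21 to 77 in MMC, 441 to 717 in NCS, 142 to 326 in H2O2 and 389 to 891 in CUR. Some changes under 1.5-fold crossed an adjusted p of 0.05 by limma with the block. Examples that fell below it are IFIT3 in NCS (0.054 to 0.004) and OAS1 in BRO (0.051 to 0.018). ISG15 went the other way in MMS (0.019 to 0.066) and in ETP (0.042 to 0.061). The 2 scalings moved the median of all genes by at most 0.043. Signal over background limits OAS3, MX1 and IFIT2.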

Other observations

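In the 7 groups of the DMSO_pooled set, replicates 1 and 2 were the lowest pair of every group in IFIH1 (7 of 7) and the highest pair of every group in IFIT3 (7 of 7). In IFIT1 and in IFI44 they were the highest pair in 4 of 7 groups each, and in OAS1 and MX1 in 0 of 7. This pattern was picked out after the values were seen. In DMSO_pooled itself replicates 1 and 2 read 6.02 and 5.99 in IFIH1, where the others read 6.39 to 7.03, and 7.27 and 7.36 in IFIT3, where the others read 7.01 to 7.12.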
